A study of Hordeum vulgare with 2 samples.

Results

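Reversibly glycosylated polypeptide (RGP) and enzymes that make or use sugar nucleotides were examined in protein extract of barley embryos, peptide by peptide, for cysteines that thioredoxin (Trx) reduced. Members were the peptides whose deposited protein name held 1 of 7 phrases in either sample: reversibly glycosylated, UDP-glucose, ADP-glucose, glucose-1-phosphate, GDP-mannose, sucrose synthase or phosphooctonate. The phrases UDP-glucose, ADP-glucose and GDP-mannose matched no name. This gave 13 of 210 peptides, from 5 of 164 protein entries, and 7 of the 13 came from a single entry, the barley consensus transcript TC130945, named after a wheat RGP. Among the other entries were sucrose synthase 1 (SUS1_HORVU) and UTP-glucose-1-phosphate uridylyltransferase (UGPA_HORVU, UGPase below). The rest were large subunit 1 of glucose-1-phosphate adenylyltransferase (GLGL1_HORVU, AGPase below) and 2-dehydro-3-deoxyphosphooctonate aldolase (KDSA_ARATH, KDO8P synthase below), the last named after an Arabidopsis protein.

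Both samples were extract of embryos dissected from seeds of the malting cultivar Barke after 48 h of germination. Extraction was done with iodoacetamide (IAM), which caps free thiols for good, and portions of the extract were then held for 1 h with or without Trx, a small protein that reduces disulfides of other proteins. In the blocked run, IAM was added again at 10 mM, so that thiols freed by Trx were capped too; in the control run this addition was left out. The remaining cysteines were reduced chemically and given an isotope-coded affinity tag (ICAT), light for the portion with Trx and heavy for the portion without it, and both portions were mixed in equal amounts, so that a cysteine that Trx had reduced shows a heavy/light ratio above 1 in the blocked run. Each run is 1 sample, and the labels of the control disagree: one short field has no Trx in it, while the fuller description, followed here, gives Trx to the light portion. Trx was added to extracted protein, not to living embryos.

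Sugar nucleotides are the activated sugars from which plants build walls and starch. Sucrose synthase splits sucrose with UDP and yields UDP-glucose, and UGPase makes and breaks the same compound with UTP and pyrophosphate. RGPs are cytosolic and Golgi-associated proteins that carry a sugar taken from a UDP-sugar, and several of them are mutases that interconvert the pyranose and furanose ring forms of UDP-arabinose, the furanose being the form used for arabinoxylan and pectin. AGPase makes ADP-glucose, the donor for starch, and in potato tuber it is known as a redox-controlled enzyme through a disulfide between its small subunits. KDO8P synthase makes the precursor of a sugar acid found in pectin, which is activated with CMP in a later step, so it is an enzyme of wall sugar synthesis rather than of a sugar nucleotide itself.

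The peptides of under 15 residues are shown because each marks the cysteine whose ratio is reported. They are written from the amino end, as deposited, and are numbered within an entry by their ratio in the blocked run and then, for those seen only in the control run, in the control run.
RGP peptide 1: ECDTVQK
RGP peptide 2: ASCISFK
RGP peptide 3: CFGYMVSK
RGP peptide 4: YVFTIDDDCFVAK
RGP peptide 7: VICDHLSLGVK
RGP peptide 6: CYISLSEQVR
Sucrose synthase 1: LGVTQCTIAHALEK
KDO8P synthase peptide 1: VADIIQIPAFLCR
KDO8P synthase peptide 2: ELIPCIAR
The others are RGP peptide 5 (15 residues, cysteine at position 7), UGPase peptide 1 (19 residues, cysteine at 13), UGPase peptide 2 (21 residues, cysteine at 3) and the AGPase peptide (19 residues, cysteine at 12). Each of the 13 holds 1 cysteine, so that its ratio belongs to 1 site of the peptide. The sucrose synthase 1, AGPase and KDO8P synthase peptides also matched further accessions. Their ratios may therefore pool that site over several proteins. RGP peptide 1 is followed in its protein by a cysteine, per the deposited flanking residues, and RGP peptide 6 begins with a cysteine that follows a lysine. These residues would let peptide 6 follow peptide 1 directly, but the deposited tables do not give positions in the protein.

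The blocked run gave 199 quantified peptides, 10 of them members, and the control run 93, of which 8 were members. Of the members 5 were in both runs (38.5%), a share like that of all peptides, 82 of 210 (39%). Ratios are the authors' averages, and ± is the authors' SD among the ratios of a peptide within a run, not a replicate error. With 1 sample per group there is no test of a difference. A ratio was called above the control limit when it exceeded the mean + 2 SD of the log2 ratios of all control peptides, which is 1.236 as a ratio, and the matching lower limit was 0.822. Mascot identification scores of the members were 30 to 82 with the block and 23 to 78 without it, against medians of 41 and 39 for all peptides.

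RGP had low ratios for most of its cysteines measured in the blocked run. Its peptide 1 had 1.28 with an SD listed as 0, peptide 2 had 1.13 ± 0.14, peptide 3 had 1.07 with an SD listed as 0, peptide 4 had 1.06 ± 0.11, and peptide 5 had 1.06 ± 0.03. Thus 4 of the 5 lay within 0.1 of the lowest, and peptide 1 alone was above the control limit, by 0.0479. The number of ratios behind its value is not given, and with an SD listed as 0 it may rest on 1 measurement. Its place above the limit was lost with a limit of 3 SD, a limit at the highest control peptide or a fixed ratio of 1.5. That place was also lost when the blocked run was divided by an offset of 1.11. The same settings ended the call of the other member above the limit, described further on. A Mascot score of at least 40 removed both peptides, which scored 33 and 38, so it did not retest their ratios. In the control run peptide 2 had 1.004 ± 0.09, peptide 6 had 0.958 ± 0.11, peptide 7 had 0.946 ± 0.03 and peptide 5 had 0.865 ± 0.08. All 4 control values were below the median of that run, 1.01, and peptide 5 was 7th from the bottom of the 93.

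Among all members, 2 of 10 peptides were above the control limit in the blocked run, against 50.8% of all peptides of that run and 48.9% of those with 1 cysteine. In the control run 0 of 8 were above it, against 2.15% of all control peptides. The limit was set from these same control peptides, so few of them could lie above it. The members' median ratio was 1.068 in the blocked run, where that of all peptides was 1.249, and 0.952 in the control run. In the blocked run 8 members lay below the median of all peptides, 1 lay above it and 1 was at it. None of the 10 exceeded a ratio of 1.5, which 65 of the 199 peptides did.

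**Figure D1:**
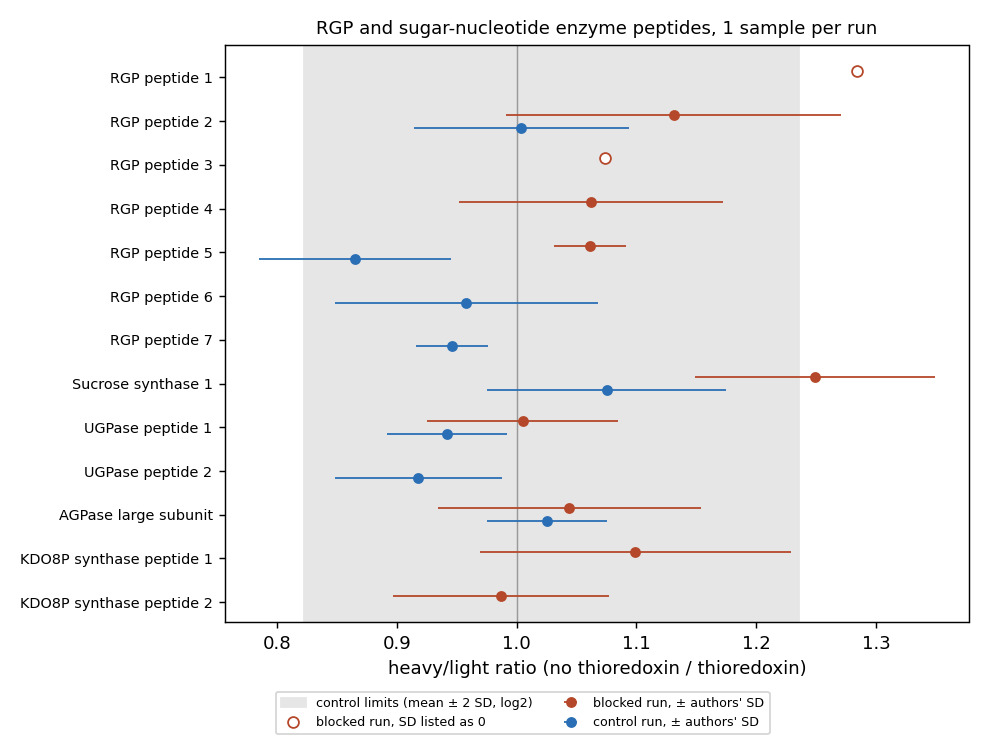
Heavy/light ratio (horizontal axis, no unit) of each of the 13 member peptides in the blocked run (red) and the control run (blue); bars are the authors' SD within a run, open circles have an SD listed as 0, and the grey band spans the control limits of 0.822 to 1.236. Only RGP peptide 1 at 1.28 and sucrose synthase 1 at 1.249 lie to the right of the band.

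The other peptide above the limit was that of sucrose synthase 1, at 1.249 ± 0.10, which exceeded the limit by 0.0129. Its SD range of 1.15 to 1.35 takes in the limit, and its value was the median of the run, with rank 100 of 199. RGP peptide 1 had rank 96 from the top, so the highest member stood close to the middle of the run. The control value of sucrose synthase 1 was 1.075 ± 0.10, with rank 20 of 93 from the top, the highest of the members there. Its peptide matched 9 further accessions with the block and 2 without it, so the isoform it came from is not fixed by the sequence.

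UGPase peptide 1 had 1.005 ± 0.08 with the block and 0.942 ± 0.05 without it. UGPase peptide 2, a different cysteine, was measured only in the control run, at 0.918 ± 0.07, and the SD ranges of these peptides overlapped there. The AGPase peptide had 1.04 ± 0.11 with the block and 1.03 ± 0.05 without it, and was the best identified member, with scores of 82 and 78. It matched 3 further accessions with the block and 1 without it, all large subunit entries of maize or wheat by their codes, so the isoform is not fixed. No small subunit peptide is among the members. KDO8P synthase peptide 1 had 1.099 ± 0.13 and peptide 2 had 0.987 ± 0.09 in the blocked run, with overlapping SD ranges, and neither has a control value. Each also matched 1 further accession. KDO8P synthase peptide 2 was the lowest member of the blocked run, at rank 184 of 199 from the top.

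**Figure D2:**
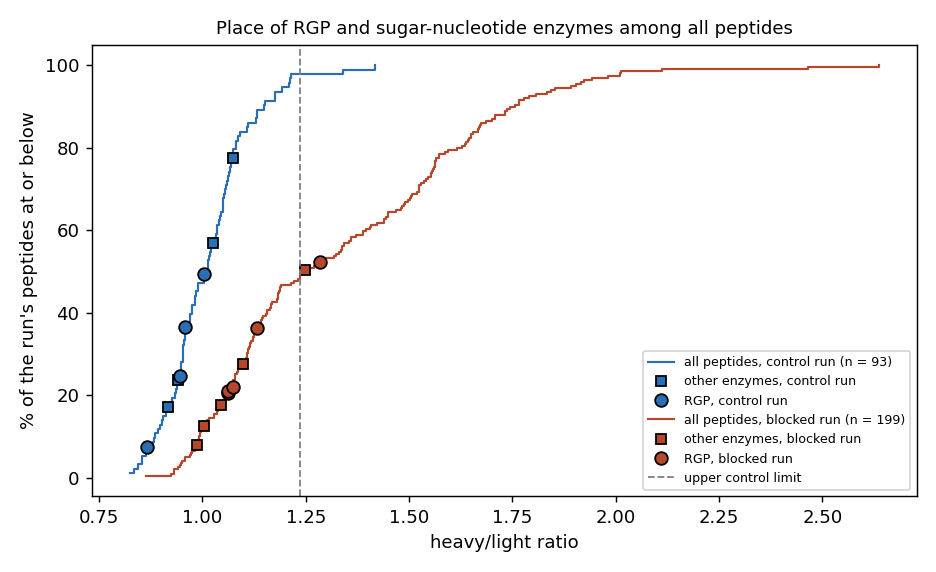
Cumulative share (vertical axis, percent of the run's peptides) against the heavy/light ratio (horizontal axis) for all 199 peptides of the blocked run (red) and 93 of the control run (blue), with RGP peptides as circles, the other enzymes as squares and the upper control limit dashed. The members of the blocked run lie on the lower part of its curve, up to sucrose synthase 1 and RGP peptide 1 near its middle.

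In the order of the 10 blocked ratios, from RGP peptide 1 and sucrose synthase 1 down through RGP peptide 2, KDO8P synthase peptide 1, RGP peptides 3, 4 and 5, AGPase and UGPase peptide 1 to KDO8P synthase peptide 2, the SD ranges of neighbours overlapped wherever both SDs were above 0. Over all 45 pairs of these peptides, 28 had an SD above 0 on both sides, and the ranges were apart for 3. Each of the 3 set sucrose synthase 1 against a low member, which was RGP peptide 5, UGPase peptide 1 or KDO8P synthase peptide 2. The share of pairs apart among all peptides of the run was not counted, so the overlap is not shown to be a trait of the members.

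The RGP entry had 5 peptides in the blocked run, the most of any entry, which lets its cysteines be compared within the same protein. Its highest and lowest peptides, 1 and 5, differed 1.21-fold, a span of 0.28 on the log2 scale. The error of that span is not known, because peptide 1 has an SD listed as 0. Of the 10 pairs of RGP peptides, 3 had an SD above 0 on both sides, and the SD ranges overlapped in all 3. None of these 3 pairs includes peptide 1. In the control run the highest and lowest of its 4 peptides, 2 and 5, differed 1.16-fold, and the ranges overlapped in all 6 pairs. Pairs within the entries outside the members were not counted in this way, so the overlap is not shown to be particular to RGP. Peptides 1, 3 and 4 were seen only in the blocked run and peptides 6 and 7 only in the control run, so most of the measured RGP cysteines have a value in 1 run alone.

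Among the 7 entries with 3 or more peptides in the blocked run, the RGP span was the 2nd narrowest, and spans ran from 0.096 to 0.88 on the log2 scale. RGP and globulin 2, a seed storage protein, were the 2 entries of these in which every peptide holds 1 cysteine. When only peptides with 1 cysteine were taken, 24 entries had 2 or more, with a median span of 0.15, and RGP had the 7th widest span. Entries with more peptides have more chances of a wide span, and this was not adjusted for.

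**Figure D3:**
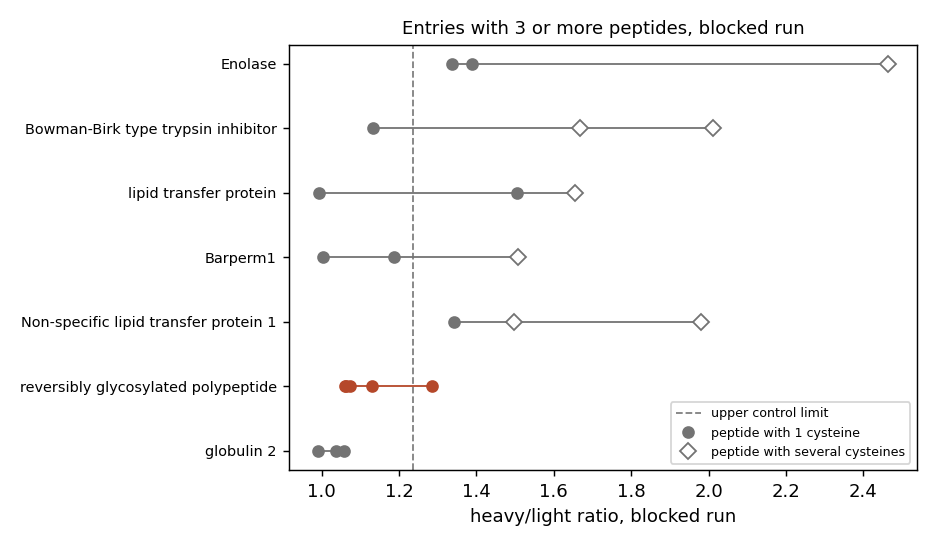
Heavy/light ratio in the blocked run (horizontal axis) of every peptide in the 7 entries with 3 or more peptides, with RGP in red, diamonds for peptides with several cysteines and the upper control limit dashed. RGP runs from 1.06 to 1.28, with 4 of its 5 peptides left of the limit.

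For the 5 members measured in both runs, the ratio was higher with the block in all 5, by 1.23-fold for RGP peptide 5, 1.16-fold for sucrose synthase 1, 1.13-fold for RGP peptide 2, 1.07-fold for UGPase peptide 1 and 1.02-fold for AGPase. Of all 82 shared peptides 81 were higher with the block, so the direction is that of the runs as a whole. The members' median difference was 0.17 on the log2 scale, and that of all shared peptides was 0.31; each of the 5 lay below the latter. Counted from the smallest difference, AGPase was 3rd, UGPase peptide 1 14th, RGP peptide 2 24th, sucrose synthase 1 30th and RGP peptide 5 40th of the 82.

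SD ranges of the blocked and control values were apart for 1 of the 5 members, RGP peptide 5 (1.06 ± 0.03 against 0.865 ± 0.08), and for 62.3% of the 69 shared peptides whose SDs both exceeded 0. RGP peptide 5 was within the control limits in each run. In the blocked run it was identified with 2 oxidised methionines, and without the block with 1, which moves its calculated mass by 15.995 Da, about the mass of an oxygen atom. UGPase peptide 1 likewise had 1 oxidised methionine with the block and 0 without it. Only 4 of the 82 shared peptides differed in this way, and 2 of them were these members. Whether the oxidation bears on the ratio was not tested. The remaining 3 members, RGP peptide 2, sucrose synthase 1 and AGPase, had equal oxidation and differences of 1.02-fold to 1.16-fold, with overlapping SD ranges. They were identified by the heavy form in one run and the light form in the other, with calculated masses 9.03 Da apart, whereas the ratio is read from both forms.

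**Figure D4:**
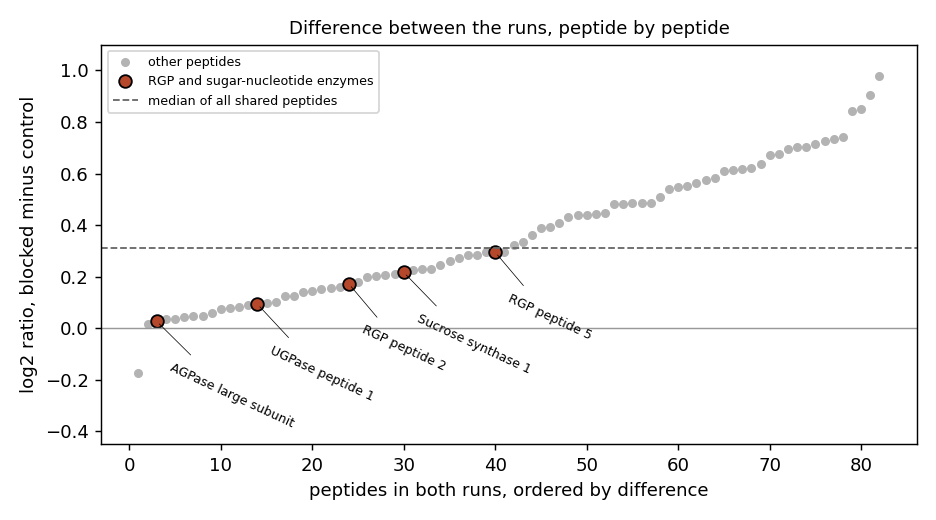
Log2 heavy/light ratio of the blocked run minus that of the control run (vertical axis) for the 82 peptides in both runs, ordered from the smallest difference (horizontal axis, rank), with the 5 members in red and the median of all shared peptides dashed at 0.31. All 5 members lie between 0 and the dashed line.

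Other carbohydrate enzymes, found by a list of words in the protein names, gave 9 peptides in the blocked run. Of these 4 were above the control limit, close to the 50.8% of all peptides of the run, and their median ratio was 1.11. The highest were a beta-amylase peptide at 1.65 ± 0.03, alpha-amylase inhibitor BDAI-1, which is an inhibitor and no enzyme, at 1.645 ± 0.19, and sucrose:fructan 6-fructosyltransferase, which builds fructans from sucrose, at 1.53 ± 0.15. Another peptide of the same beta-amylase entry had 1.11 ± 0.05, below the limit. The SD ranges of these 2 beta-amylase peptides were apart, so the entry was not raised as a whole. The lowest were a beta-galactosidase, a glycosidase that trims galactose, at 1.02 ± 0.05, inositol monophosphatase 3 at 0.976 ± 0.06 and an endo-1,3-beta-glucanase, which cuts wall glucans, at 0.948 ± 0.02. Soluble inorganic pyrophosphatase, which splits pyrophosphate, was the other one above the limit, at 1.27 ± 0.07. In the control run 0 of the list's 5 peptides were above the limit, and their ratios ran from 0.946 to 1.08.

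Proteins taken by name as markers of the starchy endosperm, a seed tissue outside the embryo, were also in the extract. In the blocked run 5 marker peptides from 4 entries had 1.11 to 1.92 (4 above the limit, where 50.8% of all peptides were). The control run had 1, at 1.08. The blocked entries were beta-amylase, with 2 of the peptides, BDAI-1, an avenin-like protein and B1 hordein. Aleurone and scutellum, other seed tissues, were not separated from endosperm by any list. Beta-amylase and BDAI-1 are among these markers as well as in the list above. AGPase and sucrose synthase 1 are known from endosperm as well as embryo, and the part of endosperm material in their values was not tested.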

How the data were processed

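Each sample has 1 table of cysteine peptides. Per the series description, the Mascot script (version 1.6b20, in Analyst QS 2.0) wrote the peak lists, which were searched with Mascot against plant entries of Swiss-Prot 54.6, a non-redundant protein collection and the barley gene index 9.0, with mass tolerances of 0.2 Da. Per the same source, MSQuant 1.4.3a12 measured the pairs, and matches with a score of 20 and a tag of 3 residues were accepted after inspection. The deposited heavy/light ratio is the authors' average, with the authors' SD in the same unit. The number of ratios behind each and any centring are not given in the sources used here. An SD is listed as 0 for 27 blocked and 10 control peptides, and such peptides were left out of SD range checks. The deposited score rates each peptide match (Mascot ion score). Charges and masses were used as deposited to describe peptide forms.

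Tables were joined on the peptide sequence, and limits were the mean ± 2 SD of log2 ratio over the control peptides (Python 3.11.15, pandas 2.3.3). The calculation of the limits was tested on simulated data. SD ranges (ratio ± SD) of any pair of values were compared for overlap. Each group has 1 sample, so no test was made, and peptides are not replicates. Members and lists were chosen with earlier results of these data known. Every member was described. From the wider carbohydrate list the 3 highest and 3 lowest blocked ratios were named. Pyrophosphatase and another beta-amylase peptide were added after their values were seen. No coordinates are given, since the entries were not matched to a barley genome here.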

Additional observations from a re-analysis of the deposited data

How the results depend on the processing

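Of 29 alternatives, 10 could change no value: those with 1 cysteine, those with members by the blocked run's names, and the higher limits for the control count of 0. Of the other 19, 4 left the result within 1.5 times the count or within the members' median SD, and 15 moved it further. The 2 member peptides above the limit, and the 1 of RGP, became 0 and 0 under 5 of them, where many other peptides stayed above. Among these 5, a score of at least 40 removed both peptides, so its counts of 0 did not retest their ratios. The share of all blocked peptides above was 41.7% with a limit of 3 SD (1.37), 38.7% at the highest control peptide (1.418), 32.7% at a fixed ratio of 1.5 and 54.7% of the 106 peptides with a score of at least 40. It was 41.2% after dividing the blocked run by 1.11, the median difference of the 40 shared peptides within the limits in both runs. That division also took the members' median ratio from 1.068 to 0.96, across 1, and left 0.017 as the log2 difference between the runs. Every shared member but sucrose synthase 1 is among those 40 and helped to set the offset, so a small remainder is partly built in. A score of at least 40 left 3 blocked members, 2 of them from RGP, with an RGP span of 0.0014, and 1 shared member, AGPase, with a difference of 0.026. With ranges of 2 SD, 0 shared members were apart, against 37.7% of the 69 shared peptides. A limit by the median absolute deviation (1.21) gave counts of 2 and 1 again, with 53.3% of all peptides above. No paired analysis was possible because each group has 1 sample.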

Other observations

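Mass errors after the authors' calibration were wide for 2 members. KDO8P synthase peptide 1 had -20.7 ppm in the blocked run, where all peptides ran from -27.4 to 23.3 ppm, and UGPase peptide 2 had 38.0 ppm in the control run, where they ran from -25.4 to 56.2 ppm. The other members lay between -14.1 and 15.2 ppm. In the blocked run 6 of the 10 members were identified by the heavy form, and in the control run 4 of 8. Of all peptides, 119 of 199 in the blocked run and 48 of 93 in the control run were, so the members were like the runs.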
